A study of Mus musculus with 24 samples.

Results

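The response of mouse lung to irradiation was followed in animals that also received imatinib. The comparison set the samples titled Irradiation+Imatinib-1 and -2 against those titled Imatinib-1 and -2, chosen by those titles, so that both sides had the drug and irradiation was the labelled difference. They are 4 of the 24 single-colour arrays of the series, which holds 12 groups of 2 biological replicates. Imatinib lungs were unirradiated lungs of animals labelled as treated with Imatinib, and Irradiation+Imatinib lungs had irradiation and Imatinib. Expression was measured 24 days after irradiation in RNA from shock-frozen lung tissue. The labels used here give no strain, age, sex, dose, schedule or part of the lung. Other arms entered as comparators: no drug (ctrl and Irradiation), Su (Su and Irradiation+Su) and Ly+Imatinib (Ly+Imatinib and Irradiation+Ly+Imatinib), where Ly and Su are written as in the labels. With 2 arrays per group, the number of arrays limits the precision of every value.

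Imatinib blocks the ABL, KIT and PDGF receptor kinases. In the lung, PDGF receptors drive the growth of fibroblasts and of the muscle cells around vessels, and KIT is needed by mast cells. Ionising radiation breaks DNA and activates the transcription factor p53, whose targets halt the cell cycle or start cell death. In the weeks that follow, irradiated lung draws in inflammatory cells and can lay down collagen, with TGF-beta and PDGF among the signals known to take part. The series title asks about blocking both of these signals.

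Each value below is a log2 level, the log2 intensity of a gene's probe minus the log2 of that array's 75th percentile, and each difference is Irradiation+Imatinib minus Imatinib on that log2 scale, with its standard error from limma. A gene passed the test, or was called, when its Benjamini-Hochberg adjusted p, over the 20409 genes tested, was under 0.05. Feature Extraction, the scanner software, marked 65.9% to 73.3% of spots on the 4 arrays as well above background, the highest share on Irradiation+Imatinib 2. Replicates correlated across genes at r = 0.989 for Imatinib and 0.984 for Irradiation+Imatinib, against 0.973 to 0.994 over the 12 groups. The Imatinib arrays shared slide 2 with Su, and the Irradiation+Imatinib arrays slide 5 with Irradiation+Su, so that slide and irradiation cannot be told apart here. Markers of alveolar, airway, endothelial and smooth muscle cells, macrophages, T and NK cells and B cells were well above background on all 4 arrays. Of 4 fibroblast markers 2 were, with Dcn above background on none. The thymus markers Ptcra and Rag1 and liver Apoa1 were at background. Thymus Dntt, liver Alb, oesophagus Krt13 and thyroid Tg were above background on all 4 arrays. So were all markers of cardiac muscle, skeletal muscle and adipose tissue, so that the specimens could hold other tissue.

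Between Irradiation+Imatinib and Imatinib lungs 560 genes differed, 2.74% of those tested, and most of them were higher after irradiation: 479 were higher (2.35%) and 81 lower (0.397%). The upper end held p53 targets (Gdf15, Psrc1), matrix and cartilage genes (Col2a1, Spon2, Adamtsl2) and transcription factors (Tfap2e, Irx3, Tbx4). The lower end held airway secretory products (Bpifb1, Tff2), transport proteins (Aqp3, Kcne3) and an antioxidant enzyme (Gsto1). Over the called genes the absolute log2 difference had a median of 1.09 and ran from 0.39 to 4.75, while the median difference over all genes tested was 0.03. Groups did not overlap in 11287 genes, 55.3% of those tested, with 30.3% higher and 25% lower. An unadjusted p under 0.05 by limma was found in 3779 genes, 18.5% of those tested. Counts of list members at that level are to be read beside this share. Of the higher calls, 295 were above background on all 4 arrays, 116 were at background on both Imatinib arrays and above it in at least 1 irradiated lung, and 36 were at background on all 4. Of the lower calls, 72 were above background on all 4 arrays. Scaling each array to its median moved the median over all genes to -0.15 and gave 283 higher and 212 lower calls, so that the balance of directions rests on the scaling. With the normexp background correction, run with an offset of 50 added to each intensity, 6 genes were called, among them Gdf15.

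**Figure D1:**
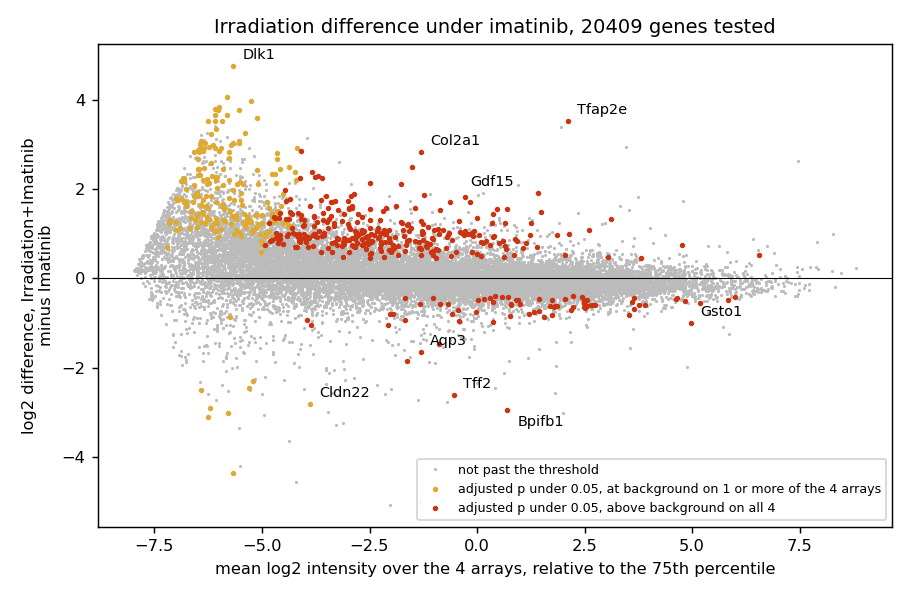
Irradiation difference in log2 (vertical) against the mean log2 level over the 4 arrays relative to the 75th percentile (horizontal); each point is 1 gene. Red points are the 295 higher and 72 lower calls above background on all 4 arrays, and yellow points are calls at background on 1 or more arrays. The yellow points lie at the dim end and are mostly higher.

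Irradiation+Imatinib 2 stood further from the Imatinib lungs than Irradiation+Imatinib 1 in most calls. It had the higher level of the pair in 325 of 479 higher calls (67.8%) and the lower level in 66 of 81 lower calls (81.5%), against a higher level in 53.4% of all genes tested. Without it 129 genes were called, and without Irradiation+Imatinib 1 there were 1268. Leaving out Imatinib 1 gave 270 calls and leaving out Imatinib 2 gave 134, with the lone sample assumed to vary like the other groups. Without Irradiation 1, which enters only the shared spread, there were 945. Of 58 genes that were chosen for naming and called, 13 kept their call whichever of the 4 arrays was left out. They were Irx3, Spint2, Pcbp1, Aqp3 and Cldn22, with Il20, H1f6, Itga10, C1s2, Cep20, Tnfsf12, Spertl and Pou5f1. Cldn22 and Il20 were at background on both irradiated arrays, and those from H1f6 to Pou5f1 on both Imatinib arrays. Irx3, Spint2, Pcbp1, Cep20 and Tnfsf12 lay higher on each array of slides 5 and 6 than on any other array. With normexp none of these genes kept its call, and of the 58 only 1 did (Gdf15).

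Among p53 targets, 5 of 30 genes tested were called higher and none lower, beside 2.35% of all genes called higher: Gdf15, Psrc1, Eda2r, Phlda3 and Zmat3. The median difference of the 30 was 0.20, and 15 were higher and 7 lower without overlap between groups, beside 30.3% and 25% of all genes. With median scaling the median was 0.02 with 2 calls, without Irradiation+Imatinib 2 it was 0.12, and with normexp 1 member was called. The same list had 11 higher calls in the no-drug arm, where 7.15% of all genes were called higher, and a median of 0.40. In the imatinib arm none of the 5 kept its call without Irradiation+Imatinib 2 or without Imatinib 2. The promoters shown here are 1 each of the best known arrest gene, Cdkn1a, of the called members Gdf15 and Psrc1, and of Ccng1. They are RefSeq sequences of build GRCm38.p6, from 250 bases before to 50 after the start of the gene. Capitals mark each match to the p53 half-site, which was searched on both strands. The windows are chr17:29090729-29091028 on the plus strand (Cdkn1a), chr8:70632407-70632706 on the minus strand (Gdf15), chr3:108383554-108383853 on the plus strand (Psrc1) and chr11:40755237-40755536 on the minus strand (Ccng1).
Cdkn1a: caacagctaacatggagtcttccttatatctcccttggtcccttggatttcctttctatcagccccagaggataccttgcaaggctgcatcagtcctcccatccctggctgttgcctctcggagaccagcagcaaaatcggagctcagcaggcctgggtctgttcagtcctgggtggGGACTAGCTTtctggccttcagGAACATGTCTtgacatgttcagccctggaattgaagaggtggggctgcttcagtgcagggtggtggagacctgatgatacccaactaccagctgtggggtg
Gdf15: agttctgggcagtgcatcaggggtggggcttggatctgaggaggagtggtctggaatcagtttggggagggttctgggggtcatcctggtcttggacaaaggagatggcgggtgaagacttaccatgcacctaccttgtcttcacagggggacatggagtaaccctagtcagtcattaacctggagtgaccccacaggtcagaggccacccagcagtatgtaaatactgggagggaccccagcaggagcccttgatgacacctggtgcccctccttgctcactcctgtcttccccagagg
Psrc1: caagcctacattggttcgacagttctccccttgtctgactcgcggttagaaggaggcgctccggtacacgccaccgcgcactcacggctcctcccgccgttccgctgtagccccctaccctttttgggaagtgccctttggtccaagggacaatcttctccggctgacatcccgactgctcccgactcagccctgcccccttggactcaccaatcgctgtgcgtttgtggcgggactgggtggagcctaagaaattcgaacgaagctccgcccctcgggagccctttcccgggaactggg
Ccng1: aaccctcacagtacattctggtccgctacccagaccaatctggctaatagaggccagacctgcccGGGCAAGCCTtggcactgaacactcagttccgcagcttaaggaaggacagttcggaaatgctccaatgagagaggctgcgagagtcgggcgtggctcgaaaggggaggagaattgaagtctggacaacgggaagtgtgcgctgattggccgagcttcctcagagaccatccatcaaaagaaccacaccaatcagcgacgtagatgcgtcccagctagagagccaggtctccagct

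The Cdkn1a window shown held 2 half-sites, starting 73 and 51 bases before the start. A second Cdkn1a promoter, at chr17:29093519-29093818 and not shown, held no half-site. A pair within 13 bases of each other occurred in 0.07% of the 32851 promoters. The Ccng1 window held 1 half-site. The windows of Gdf15 and Psrc1 held no match, nor did the second promoter of each, which is not shown. That says only that these letters are not there. The 22 list genes with a promoter sequence had 31 promoters, of which 11 held a half-site, and 8.36% of all promoters did.

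Gdf15, a stress cytokine of the TGF-beta family, had log2 levels of -1.0 and -1.38 in the Imatinib lungs and 0.46 and 0.81 in the Irradiation+Imatinib lungs. Both irradiated lungs lay above both unirradiated ones. The difference was 1.82 ± 0.30, a 3.54-fold rise (adjusted p = 0.00506, limma with Benjamini-Hochberg adjustment). It kept its call with normexp (1.73, adjusted p = 0.0434) but not without Irradiation+Imatinib 2 (1.65, adjusted p = 0.0711) or without Imatinib 2 (1.64, adjusted p = 0.0662). Psrc1, which encodes a protein of the mitotic spindle, had levels of -1.59 and -1.39 under Imatinib and of -0.23 and 0.66 with irradiation added. The groups did not overlap, and the rise was 1.71 ± 0.32 (adjusted p = 0.0113). Leaving out 1 of the 4 arrays gave values of 1.26 to 2.15 for Psrc1, which kept its call in 1 of these 4 fits, with an adjusted p of up to 0.186 (without Irradiation+Imatinib 2). Eda2r, a receptor for the ectodysplasin A2 ligand, had levels of -4.06 and -3.94 against -2.86 and -2.08, again without overlap. Its rise was 1.53 ± 0.34 (adjusted p = 0.0261). It kept its call in 1 of the 4 fits with an array left out, with an adjusted p of 0.366 without Irradiation+Imatinib 2.

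Phlda3, which holds back AKT signalling, had levels of 4.48 and 4.28 without irradiation and 4.95 and 5.32 with it, with a rise of 0.75 ± 0.15 (adjusted p = 0.0166). Zmat3, an RNA-binding zinc finger protein, had levels of -0.49 and -0.63 against 0.21 and 0.56, with a rise of 0.94 ± 0.21 (adjusted p = 0.0263). Neither gene had groups that overlapped. Both were named after their values were seen. Both lost their call without Irradiation+Imatinib 2, at 0.57 for Phlda3 and 0.77 for Zmat3, and without Imatinib 2. Zmat3 also lost it without Imatinib 1. Cdkn1a, the cell cycle inhibitor p21, had levels of 0.57 and 0.48 against 1.52 and 2.23, and its difference of 1.35 ± 0.35 missed the threshold (adjusted p = 0.0565) although the groups did not overlap. Mdm2, which marks p53 for destruction, differed by 0.23 ± 0.20 (adjusted p = 0.592), and Ccng1, encoding cyclin G1, by 0.28 ± 0.26 (adjusted p = 0.626). The pro-apoptotic gene Bax differed by 0.19 ± 0.15 (adjusted p = 0.572). In the no-drug arm Ccng1 differed by 1.37 (adjusted p = 0.00846) and Bax by 0.73 (adjusted p = 0.0125), but the difference between arms did not pass for either (adjusted p = 0.154 and 0.202).

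**Figure D2:**
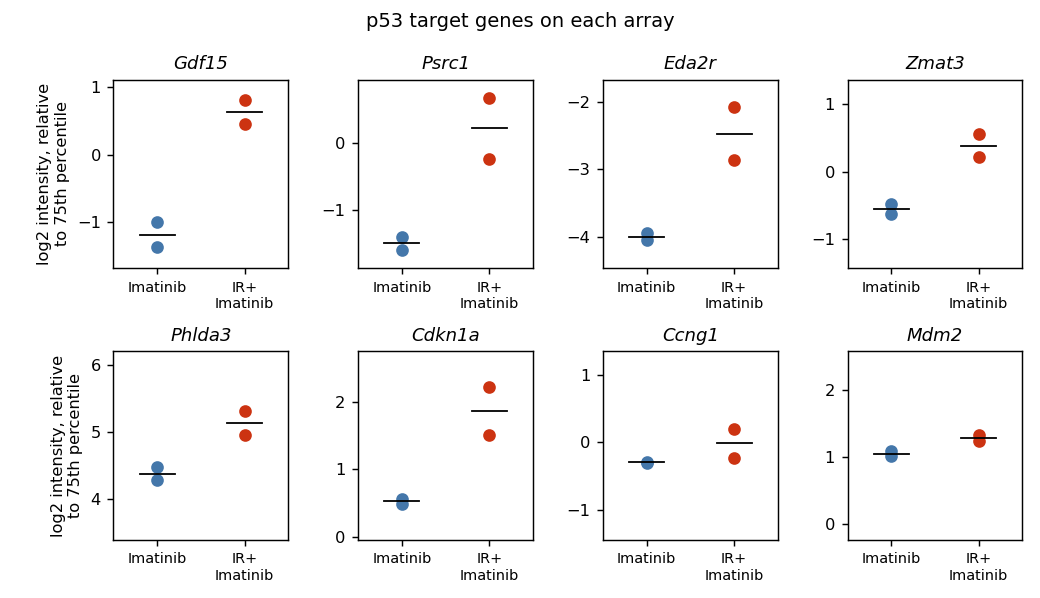
Log2 level relative to the 75th percentile (vertical; each panel spans the same range of log2 units around its gene) of 8 p53 targets in the Imatinib (blue) and Irradiation+Imatinib (red) lungs; points are arrays and bars are group means. Gdf15 and Psrc1 show the widest gaps between groups (1.82 and 1.71), and in Ccng1 the red points lie at -0.24 and 0.20 beside blue points at -0.29 and -0.30.

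Collagens and other matrix genes had positive differences in most members, with few calls. Of 8 fibrillar collagens tested, 1 was called higher (Col2a1), beside 2.35% of all genes, 6 were higher and 1 lower without overlap, beside 30.3% and 25%, and the median difference was 1.05. Col2a1, the main collagen of cartilage, had levels of -2.55 and -2.89 under Imatinib and of -0.54 and 0.77 with irradiation. The groups did not overlap, and the rise was 2.83 ± 0.46, or 7.12-fold (adjusted p = 0.00512). Col1a1, a chain of the main fibrous collagen of scar, had levels of 3.56 and 3.34 against 4.0 and 5.18. Its groups did not overlap, but the irradiated lungs lay far apart and the difference of 1.14 ± 0.39 did not pass (adjusted p = 0.134). Col3a1, the collagen laid down with it, had levels of 3.99 and 3.76 against 4.22 and 5.48 and a difference of 0.97 ± 0.37 (adjusted p = 0.178). Col5a2, which helps set fibril width, had levels of -0.18 and -0.35 against 0.29 and 1.76 and a difference of 1.29 ± 0.49 (adjusted p = 0.175). In these genes the second irradiated lung was the higher one. Without it the list's median was 0.44, and without Irradiation+Imatinib 1 it was 1.66.

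Of 15 other collagens, 1 was called higher (Col15a1), beside 2.35% of all genes. Without overlap 11 were higher and 1 lower, beside 30.3% and 25% of all genes, and the median was 0.52. By limma 10 had an unadjusted p under 0.05, beside 18.5% of all genes. Without Irradiation+Imatinib 2 the median was 0.32. Col15a1, a collagen of vessel and muscle basement membranes, had levels of -3.04 and -3.04 against -2.18 and -1.65, without overlap, and rose by 1.12 ± 0.20 (adjusted p = 0.00762). Col4a2, a chain of the basement membrane network, differed by 0.91 ± 0.24 (adjusted p = 0.0651). Of 18 enzymes that process and cross-link collagen, 1 was called higher, beside 2.35% of all genes, and 12 were higher without overlap, beside 30.3%. The median was 0.32 (0.18 without Irradiation+Imatinib 2 and 0.14 with median scaling). The called gene, Loxl1, which cross-links elastin, had levels of 2.15 and 1.97 against 2.86 and 3.45 and rose by 1.09 ± 0.25 (adjusted p = 0.0328). None of 31 matrix glycoproteins and elastic fibre genes was called by limma, and 11 had an unadjusted p under 0.05, beside 18.5% of all genes. Their median was 0.43. Without Irradiation+Imatinib 2 that median was 0.23, and without Irradiation+Imatinib 1 it was 0.75. Elastin (Eln) had levels of 0.17 and -0.37 against 0.91 and 3.07, without overlap, and tenascin C (Tnc), a glycoprotein of healing tissue, -2.21 and -2.64 against -1.47 and 0.09. Their differences were 2.09 ± 0.70 (adjusted p = 0.128) and 1.73 ± 0.62 (adjusted p = 0.154). Fn1, encoding fibronectin, had levels of 1.20 and 1.24 against 1.86 and 2.68, and differed by 1.05 ± 0.37 (adjusted p = 0.146). Col15a1 and Loxl1 lost their call without Irradiation+Imatinib 2, at 0.86 (adjusted p = 0.130) and 0.79 (adjusted p = 0.438), and without Imatinib 2, and Loxl1 also without Imatinib 1. Col2a1 lost its call without Irradiation+Imatinib 2 (2.18, adjusted p = 0.0815) and without Imatinib 2 (2.66, adjusted p = 0.0621).

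Of 20 TGF-beta ligands, receptors and activators, 1 was called higher, beside 2.35% of all genes. Without overlap 14 were higher and 3 lower, beside 30.3% and 25% of all genes, and the median was 0.24 (0.05 with median scaling). The called gene was Tgfb2, a TGF-beta ligand, with levels of 0.10 and 0.13 against 0.73 and 1.09. Both irradiated lungs lay above both others, and the rise was 0.80 ± 0.13 (adjusted p = 0.00602). It was lost without Irradiation+Imatinib 2 (0.62, adjusted p = 0.105) and without Imatinib 2 (0.81, adjusted p = 0.0535). The ligand gene Tgfb1 differed by 0.23 ± 0.19 (adjusted p = 0.578), and the receptor genes Tgfbr1 and Tgfbr2 by 0.25 ± 0.20 (adjusted p = 0.532) and 0.20 ± 0.14 (adjusted p = 0.495). Among 26 genes of the TGF-beta response none was called by limma, with 6 at an unadjusted p under 0.05, beside 18.5% of all genes. Their median was 0.19. That median was 0.01 with median scaling, 0.36 without Irradiation+Imatinib 1, and 0.12 without Irradiation+Imatinib 2. Acta2, the smooth muscle actin of myofibroblasts, lay at 4.78 and 4.77 against 4.70 and 4.67 and differed by -0.09 ± 0.24 (adjusted p = 0.895).

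The genes of the kinases that imatinib blocks were not called. Of 7 PDGF ligands and receptors, limma called none and 1 had an unadjusted p under 0.05, beside 18.5% of all genes. Of 6 other target kinases, none was called and none had an unadjusted p under 0.05. Pdgfra, the PDGF receptor of fibroblasts, had levels of 1.53 and 0.91 against 1.47 and 1.06, and Pdgfrb, that of pericytes, 3.79 and 3.68 against 3.77 and 3.79. In both the groups overlapped, with differences of 0.04 ± 0.28 (adjusted p = 0.960) and 0.05 ± 0.15 (adjusted p = 0.914). The ligand genes Pdgfa and Pdgfb differed by 0.10 ± 0.11 (adjusted p = 0.701) and 0.53 ± 0.69 (adjusted p = 0.748). Abl1 differed by 0.12 ± 0.10 (adjusted p = 0.545), the collagen receptor kinase Ddr1 by -0.18 ± 0.16 (adjusted p = 0.609) and the macrophage receptor Csf1r by -0.05 ± 0.21 (adjusted p = 0.931). Kit lay at 2.17 and 1.91 against 1.44 and 1.61, without overlap, with a difference of -0.52 ± 0.31 (adjusted p = 0.397). Values near 0 on 2 arrays a group do not show that these genes stayed the same. The medians of both lists changed sign with the scaling, so that no direction is given for either.

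Several of the highest genes had their highest levels on the arrays of slides 5 and 6. Tfap2e, a transcription factor of the AP-2 family, had levels of 0.42 and 0.28 under Imatinib and of 3.96 and 3.78 with irradiation. The groups lay far apart, and the rise was 3.52 ± 0.66, or 11.5-fold (adjusted p = 0.0106). It kept its call in 1 of the 4 fits with an array left out, with an adjusted p of up to 0.0899. Pcbp1, an RNA-binding protein, had levels of -1.39 and -1.88 against 0.10 and -0.28 and rose by 1.54 ± 0.19 (adjusted p = 0.000522), a call kept in every one of those fits. Irx3, a homeobox factor, had levels of -4.21 and -4.69 against -2.66 and -2.54 and rose by 1.85 ± 0.26 (adjusted p = 0.00165). Spint2, an inhibitor of serine proteases, had levels of -2.81 and -3.00 against -1.29 and -1.38 and rose by 1.57 ± 0.23 (adjusted p = 0.00248). In these 4 genes the 8 arrays of slides 5 and 6, which carried the irradiated Imatinib, Su and combination lungs, lay above the other 16, the Irradiation arrays among them. The same was so for Tbx4, a factor of lung mesenchyme, which rose by 1.55 ± 0.27 (adjusted p = 0.00800; 1.65, adjusted p = 0.0537, without Irradiation+Imatinib 2, and 1.25, adjusted p = 0.114, without Imatinib 2). This pattern held for 130 of the 479 higher calls (27.1%) and for 249 of the 6189 genes that were higher without overlap. It held, with the sign turned, for 13 of the 81 lower calls (16.0%) and for 271 of the 5098 genes that were lower without overlap. The calls were chosen on 2 of the 8 arrays against 2 of the 16, so that these counts are a description. Slides 5 and 6 held all the groups with irradiation and imatinib or Su and no other group, so that slide and treatment cannot be told apart. The part of either in these differences was not tested.

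**Figure D3:**
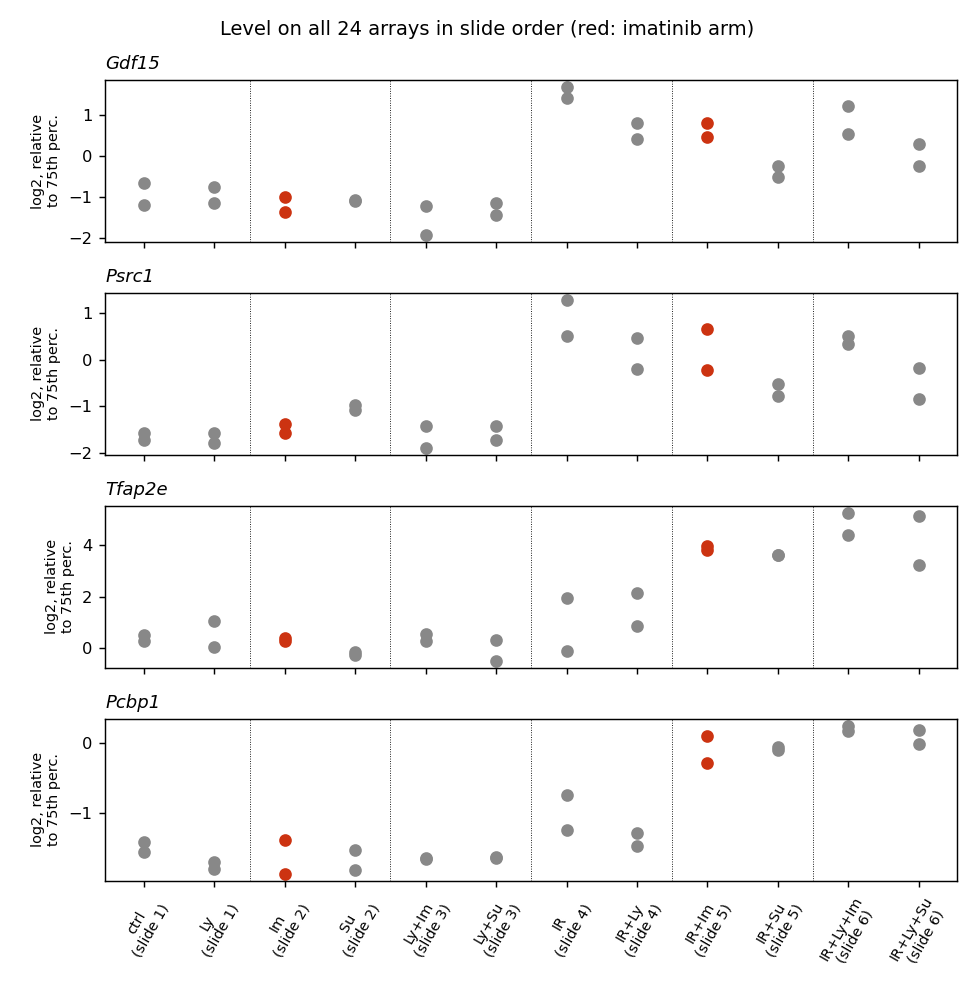
Log2 level relative to the 75th percentile (vertical, 1 panel per gene) on all 24 arrays, ordered by group and slide (horizontal; dotted lines part the 6 slides); points are arrays, with the imatinib arm in red. Gdf15 and Psrc1 lay above the Imatinib lungs on slide 4 (Irradiation) as on slide 5, while the 8 arrays of slides 5 and 6 held the highest levels of Tfap2e and Pcbp1.

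Other higher genes were also above background on all 4 arrays. Spon2, a secreted protein of the extracellular matrix, had levels of 0.53 and 0.41 against 1.98 and 2.79 and rose by 1.92 ± 0.47 (adjusted p = 0.0440). Adamtsl2, which binds fibrillin microfibrils, had levels of -0.27 and 0.12 against 1.12 and 1.83 and rose by 1.55 ± 0.33 (adjusted p = 0.0236). Fbln7, a fibulin, had levels of -3.70 and -3.69 against -2.35 and -1.90 and rose by 1.57 ± 0.27 (adjusted p = 0.00660). None of these had overlapping groups. Prnd, which encodes the prion-like protein doppel, had levels of -2.66 and -2.84 against -0.95 and 0.44 and rose by 2.50 ± 0.56 (adjusted p = 0.0290). Tubb2b, a beta tubulin, rose by 1.62 ± 0.32 (adjusted p = 0.0160), and Bpifa2, a secreted protein of the BPI fold family, by 1.72 ± 0.40 (adjusted p = 0.0340). Igfbp7, a secreted protein linked to senescence and named after its values were seen, lay at 6.25 and 6.32 against 6.66 and 6.97 and rose by 0.53 ± 0.12 (adjusted p = 0.0287). All these genes lost their call without Irradiation+Imatinib 2 and without Imatinib 2, and all but Fbln7 also lost it without Imatinib 1.

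Some genes were not well above background on both Imatinib arrays, so that their fold is a lower bound against the dimmest probe marked above background. Dlk1, an imprinted growth regulator of the Notch ligand type, was at least 5.49-fold higher in the irradiated lungs, with measured group means giving a fitted difference of 4.75 ± 0.88 (adjusted p = 0.0106). Kng1, which encodes kininogen, was at least 5.40-fold higher (adjusted p = 0.0251) and the phosphatase gene Inpp5j at least 5.57-fold (adjusted p = 0.0486). Dlk1, Kng1 and Inpp5j each lost their call without Irradiation+Imatinib 2, without Imatinib 1 and without Imatinib 2. The linker histone gene H1f6 was at least 5.36-fold higher (adjusted p = 0.000426), the integrin gene Itga10 at least 4.40-fold (adjusted p = 3.46e-05) and the complement protease gene C1s2 at least 3.96-fold (adjusted p = 0.000609).

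On the lower side, 2 products of airway mucous and serous cells had the largest differences among the called genes above background on all 4 arrays. Bpifb1, a secreted defence protein of the upper airways, had levels of 2.05 and 2.30 in the Imatinib lungs and of -1.20 and -0.35 in the irradiated ones. The groups did not overlap, and it fell by 2.95 on the log2 scale (SE 0.71, adjusted p = 0.0396). Tff2, a trefoil peptide that protects mucus, had levels of 0.62 and 0.90 against -1.92 and -1.79 and fell by 2.61 (SE 0.64, adjusted p = 0.0443). Both calls were lost with any 1 of the 4 arrays left out, with adjusted p of up to 0.210 and 0.264. In untreated ctrl lungs Bpifb1 lay at 0.68 and 1.24, and Tff2 at -0.13 and 0.15, below the Imatinib lungs in each case. Of 13 club and goblet cell genes tested, 1 (Bpifb1) was called, beside 0.397% of all genes called lower, 6 were lower without overlap, beside 25%, and the median was -0.38. Without Imatinib 1 the median was -0.76, and without Imatinib 2 it was -0.16. The list's lowest value, -4.88 ± 2.36 (adjusted p = 0.288), was that of Clca1, a goblet cell product, and rested on 1 lung: its levels were 6.83 in Imatinib 1, -0.50 in Imatinib 2 and -1.17 and -2.25 with irradiation. The mucin gene Muc5b had levels of 2.31 and 1.83 against 0.25 and 0.32 and a difference of -1.79 ± 0.65 (adjusted p = 0.157). Scgb1a1, the main secreted protein of club cells, differed by 0.16 ± 0.19 (adjusted p = 0.723). In whole lung RNA, fewer cells of a type and less RNA per cell cannot be told apart.

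Aqp3, an aquaporin that carries water and glycerol in airway basal cells, had levels of -0.20 and -0.75 against -1.99 and -2.26. The groups did not overlap, and it fell by 1.65 on the log2 scale (SE 0.24, adjusted p = 0.00236), a call kept with any 1 array left out (values of -1.93 to -1.37). Kcne3, a potassium channel subunit, had levels of -1.28 and -1.15 against -2.11 and -2.19 and fell by 0.94 (SE 0.15, adjusted p = 0.00539). It was lost without Irradiation+Imatinib 2 and without Imatinib 2, with an adjusted p of up to 0.0662. Gsto1, a glutathione transferase, had levels of 5.22 and 5.72 against 4.53 and 4.42 and fell by 1.00 (SE 0.16, adjusted p = 0.00553), with an adjusted p of up to 0.0739 under the same 2 omissions. Adra2a, an adrenergic receptor, had levels of 0.19 and -1.59 against -2.69 and -2.40, so that Imatinib 2 lay nearer to the irradiated lungs than to Imatinib 1. It fell by 1.85 (SE 0.42, adjusted p = 0.0306), and by 0.95 (adjusted p = 0.186) without Imatinib 1. Fn3k, an enzyme that repairs glycated proteins, fell by 0.96 (SE 0.18, adjusted p = 0.0113), the small GTPase gene Rhebl1 by 0.98 (SE 0.23, adjusted p = 0.0331) and the phosphatase gene Dusp26 by 1.48 (SE 0.36, adjusted p = 0.0445). These 3 kept their call in 1 of the 4 fits with an array left out. Of genes at background on both irradiated arrays, the cytokine gene Il20 was at least 2.44-fold lower (adjusted p = 0.00204). The lipoxygenase gene Alox12e was at least 2.81-fold lower (adjusted p = 0.0231), a call lost without Imatinib 1. For the claudin gene Cldn22 the irradiated levels were not below the dimmest probe marked above background, so that no bound applied. Its fitted fall was 7.05-fold (adjusted p = 0.000754), with log2 differences of -3.45 to -2.18 when 1 array was left out.

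Genes of motile cilia had small negative differences in 24 of 25 members tested. Of these, 21 were lower without overlap beside 25% of all genes, and the median was -0.49. None was called by limma, and 12 had an unadjusted p under 0.05, beside 18.5% of all genes. Dnali1, a light chain of ciliary dynein, had levels of 2.08 and 2.29 against 1.53 and 1.35 and a difference of -0.75 ± 0.21 (adjusted p = 0.0736). Foxj1, the master factor of ciliated cells, differed by -0.29 ± 0.18 (adjusted p = 0.421). Outside that list Dnah2, a dynein heavy chain, had levels of 2.04 and 2.25 against 1.51 and 1.14 and fell by 0.82 (SE 0.20, adjusted p = 0.0378), and Stk33, a kinase of ciliated cells and sperm, fell by 0.86 (SE 0.20, adjusted p = 0.0362). Both lost their call without Irradiation+Imatinib 2 and without Imatinib 2, and Dnah2 also without Imatinib 1. The list's median without that irradiated array was -0.35.

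Of 17 cytosolic heat shock genes tested, 2 were called lower, beside 0.397% of all genes, 10 were lower without overlap, beside 25%, and the median was -0.17 (-0.36 with median scaling). Hspa4l, a cochaperone of HSP70, had levels of 1.15 and 1.44 against 0.70 and 0.74 and fell by 0.58 (SE 0.12, adjusted p = 0.0160). Hspb1, the small chaperone HSP25, had levels of 3.98 and 3.76 against 3.21 and 3.46 and fell by 0.54 (SE 0.11, adjusted p = 0.0193). The adjusted p reached 0.183 for Hspa4l without Imatinib 2 and 0.149 for Hspb1 without Imatinib 1. Among 20 clock genes tested, 1 was called higher (Npas2) and 1 lower, beside 2.35% and 0.397% of all genes. Their median was -0.43, and 12 were lower without overlap, beside 25%. Npas2, a partner of the clock factor BMAL1, was at background on both Imatinib arrays and on 1 irradiated array, and the bound was 1.83-fold higher (adjusted p = 0.0318). Dbp, an output factor of the clock, lay at 6.30 and 6.21 against 5.22 and 5.09 (difference -1.10 ± 0.46, adjusted p = 0.218), and Arntl, which encodes BMAL1, at -2.16 and -2.37 against -0.65 and -0.95 (1.47 ± 0.42, adjusted p = 0.0814). The hours at which lungs were taken are not in the labels used here, and their part in the clock genes was not tested. Npas2 kept its call in 1 of the 4 fits with an array left out, with an adjusted p of up to 0.443 (without Irradiation+Imatinib 2).

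Mitosis genes were higher in 25 of 28 tested without overlap, beside 30.3% of all genes. None was called by limma, and 5 had an unadjusted p under 0.05, beside 18.5% of all genes. Their median was 0.62, against 1.04 in the no-drug arm. Aspm, a spindle protein, had levels of -5.51 and -5.89 against -4.58 and -3.68, with 1 Imatinib array at background, and a difference of 1.57 ± 0.41 (adjusted p = 0.0566). Cdk1, the kinase that starts mitosis, had levels of -3.24 and -3.46 against -2.64 and -2.01 and a difference of 1.03 ± 0.50 (adjusted p = 0.289). Mast cell genes had a median of 2.04 over 8 genes, 4 of which were above background on all 4 arrays (median 1.16). None of the 8 was called by limma, and 4 had an unadjusted p under 0.05, beside 18.5% of all genes. With normexp the list's median was 0.80, and none had an unadjusted p under 0.05. Cpa3, the mast cell carboxypeptidase, had levels of -5.92 and -5.14 against -2.79 and -1.97, a difference of 3.15 ± 0.98 (adjusted p = 0.104). Cma1, a mast cell chymase, had levels of -1.60 and -2.0 against -0.64 and 0.01, a difference of 1.48 ± 0.89 (adjusted p = 0.401). In the no-drug arm Cpa3 differed by 6.0 (adjusted p = 0.00527) and Cma1 by 4.81 (adjusted p = 0.00807), and the differences between arms were -2.85 ± 1.38 (adjusted p = 0.258) and -3.33 ± 1.26 (adjusted p = 0.184).

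T and NK cell genes were lower in 19 of 29 tested without overlap, beside 25% of all genes, and higher in 2, beside 30.3%. Their median was -0.67, and limma called none (14 had an unadjusted p under 0.05, beside 18.5% of all genes). Tbx21, the factor T-bet, had levels of 0.49 and -0.62 against -1.06 and -1.41 and a difference of -1.17 ± 0.38 (adjusted p = 0.119). Ccl5, a chemokine of activated T cells, had levels of 4.71 and 3.67 against 3.52 and 2.60, with the Imatinib lungs a full log2 unit apart. Without Irradiation+Imatinib 2 the list's median was -0.48. Neutrophil genes had a median of -1.26 over 13, and 1 Imatinib lung stood apart in them: S100a8, a calcium-binding protein of neutrophils, lay at 1.46 in Imatinib 1, 4.36 in Imatinib 2 and 1.60 and 1.35 in the irradiated lungs. None of the 13 was called by limma, and none had an unadjusted p under 0.05. Without Imatinib 2 the list's median was -0.09, and without Imatinib 1 it was -2.41. Cardiac muscle genes, which lung specimens can hold from pulmonary veins, were lower in 16 of 17 without overlap, beside 25% of all genes. Their median was -2.04, and limma called none (10 had an unadjusted p under 0.05, beside 18.5% of all genes). Tnni3, cardiac troponin I, had levels of 1.23 and 2.12 against 0.14 and -0.48 (difference -1.85 ± 0.63, adjusted p = 0.135). The mean level of 3 adipose markers moved with them, at -0.26 and 0.68 against -0.47 and -1.14. The part of such attached tissue in the other differences was not tested. Of 15 alveolar type II cell genes tested, none was called by limma (2 had an unadjusted p under 0.05, beside 18.5% of all genes). Their median was 0.35, and Sftpc, encoding surfactant protein C, differed by 0.24 ± 0.26 (adjusted p = 0.684).

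**Figure D4:**
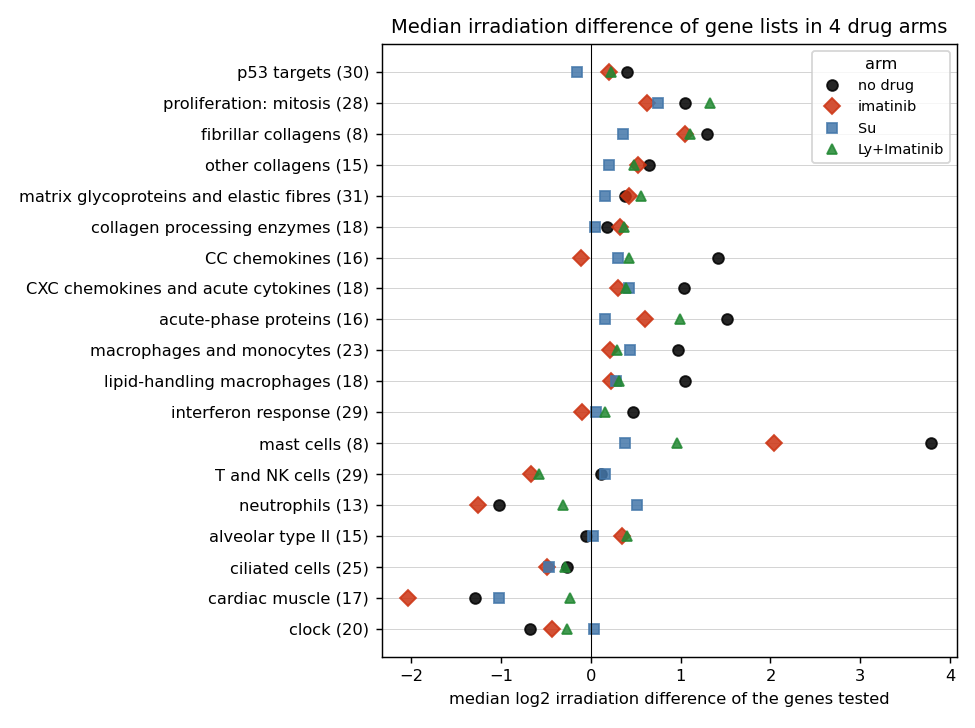
Median log2 irradiation difference (horizontal) of the genes tested in 19 gene lists (vertical, number of genes in brackets) in the no-drug (black circle), imatinib (red diamond), Su (blue square) and Ly+Imatinib (green triangle) arms. The imatinib arm lay at -0.11 for CC chemokines and 0.23 for lipid-handling macrophages where the no-drug arm lay at 1.42 and 1.04, and at 0.62 for mitosis genes where the no-drug arm lay at 1.04.

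Genes of inflammation and of macrophages had smaller median irradiation differences under imatinib than without drug. In the no-drug arm 9 of 16 CC chemokines, 11 of 23 macrophage and monocyte genes and 13 of 18 genes of lipid-handling macrophages were called higher, where 7.15% of all genes were. The medians were low in the Su arm too, which has no imatinib, at 0.30, 0.43 and 0.28, and in the Ly+Imatinib arm, at 0.42, 0.29 and 0.31. In the imatinib arm limma called none of these, with 1, 4 and 1 at an unadjusted p under 0.05, beside 18.5% of all genes. The medians there were -0.11, 0.22 and 0.23. The interferon response had a median of -0.09 over 29 genes, with none called (2 at an unadjusted p under 0.05), against 0.46 and 8 higher calls in the no-drug arm, and medians of 0.06 in the Su and 0.16 in the Ly+Imatinib arm. The median of the CC chemokines was 0.21 without Irradiation+Imatinib 1 and 0.19 without Imatinib 1, and that of the interferon response 0.03 without Irradiation+Imatinib 1, so that no direction is given for either. Those of the macrophage and lipid-handling lists were 0.40 and 0.40 without Irradiation+Imatinib 1, and 0.03 and 0.04 with median scaling. Whether a difference between arms exceeded the spread was tested gene by gene as the imatinib-arm difference minus the no-drug difference. The arms share no array but lie on different slides. That test called 132 genes (0.647%), 113 higher and 19 lower under imatinib. It called 1 of the 23 macrophage and monocyte genes, 2 of the 18 lipid-handling ones, 1 of 15 genes of alternative macrophage activation and none of the 16 CC chemokines or 29 interferon genes. The count rests on single arrays: it was 6505 without Irradiation 2 and 399 without Irradiation+Imatinib 1. It was 39 without Imatinib 2, 59 without Imatinib 1, 65 without Irradiation 1 and 67 without Irradiation+Imatinib 2.

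Mmp12, the macrophage elastase, had levels of -4.78 and -5.87 in ctrl lungs and -1.4 and -1.19 in Irradiation lungs, against -3.17 and -4.06 under Imatinib and -3.84 and -3.18 with irradiation added. It rose 4.03 ± 0.42 without drug (adjusted p = 0.000749) and differed by 0.10 ± 0.42 under imatinib (adjusted p = 0.935), where the groups overlapped. The difference between arms was -3.93 ± 0.60 (adjusted p = 0.0121). Spp1, encoding osteopontin, had levels of 4.80 and 4.58 in ctrl and 7.22 and 6.68 in Irradiation lungs, against 4.47 and 4.10 under Imatinib and 3.91 and 4.57 with irradiation. The difference between arms was -2.31 ± 0.38 (adjusted p = 0.0159), and it did not pass without Imatinib 1 (-2.13, adjusted p = 0.0664) or Irradiation 1 (-2.03, adjusted p = 0.0624). Aif1, a macrophage protein also called IBA1, and Clec10a, a lectin of macrophages and dendritic cells, were named after their values were seen. Aif1 lay at 0.60 and 0.39 in ctrl and 2.50 and 2.00 in Irradiation lungs, against 1.01 and 0.88 and then 0.92 and 1.42 in the imatinib arm, a difference between arms of -1.53 ± 0.28 (adjusted p = 0.0258). Clec10a differed between arms by -1.67 ± 0.28 (adjusted p = 0.0167), and both were lost with Imatinib 1, Imatinib 2, Irradiation 1 or ctrl 2 left out (adjusted p of up to 0.0860 and 0.0608). Trem2 and Gpnmb, which mark lipid-laden macrophages, differed between arms by -2.12 ± 0.50 (adjusted p = 0.0712) and -2.06 ± 0.47 (adjusted p = 0.0621) and did not pass. The chemokine gene Ccl2 differed by 2.95 without drug and 0.45 under imatinib, with a difference between arms of -2.50 ± 0.66 (adjusted p = 0.0928). With the normexp background correction Mmp12 differed between arms by -0.83 (adjusted p = 0.485) and no gene was called in this comparison, while 3959 had an unadjusted p under 0.05. That setting also added an offset of 50 to each intensity, and the part of the offset in these changes was not tested.

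Kcne3 went in opposite directions in the 2 arms, and Aqp3 fell under imatinib with a difference of 0.30 without drug. Kcne3 rose without drug, from -1.97 and -2.01 to -0.93 and -0.75 (1.15 ± 0.15, adjusted p = 0.00212), and fell under imatinib, a difference between arms of -2.09 ± 0.22 (adjusted p = 0.000756). The Imatinib lungs were already above the ctrl lungs, and the irradiated Imatinib lungs lay below them. Aqp3 lay at -1.38 and -1.81 in ctrl and -1.21 and -1.38 in Irradiation lungs, and the difference between arms was -1.95 ± 0.34 (adjusted p = 0.0231). It did not pass without Irradiation+Imatinib 2, Imatinib 1, Irradiation 1 or ctrl 2 (adjusted p of up to 0.0857). Kcne3 passed with any array of the 4 groups left out. With normexp neither gene passed (-1.26 and adjusted p = 0.234 for each). Nor did they with these groups fitted alone (adjusted p = 0.0902 for Kcne3 and 0.281 for Aqp3). For Gdf15 the difference between arms was -0.66 ± 0.42 (adjusted p = 0.355), for Psrc1 -0.84 ± 0.46 (adjusted p = 0.295) and for Col1a1 -0.37 ± 0.55 (adjusted p = 0.697), none of which passed.

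**Figure D5:**
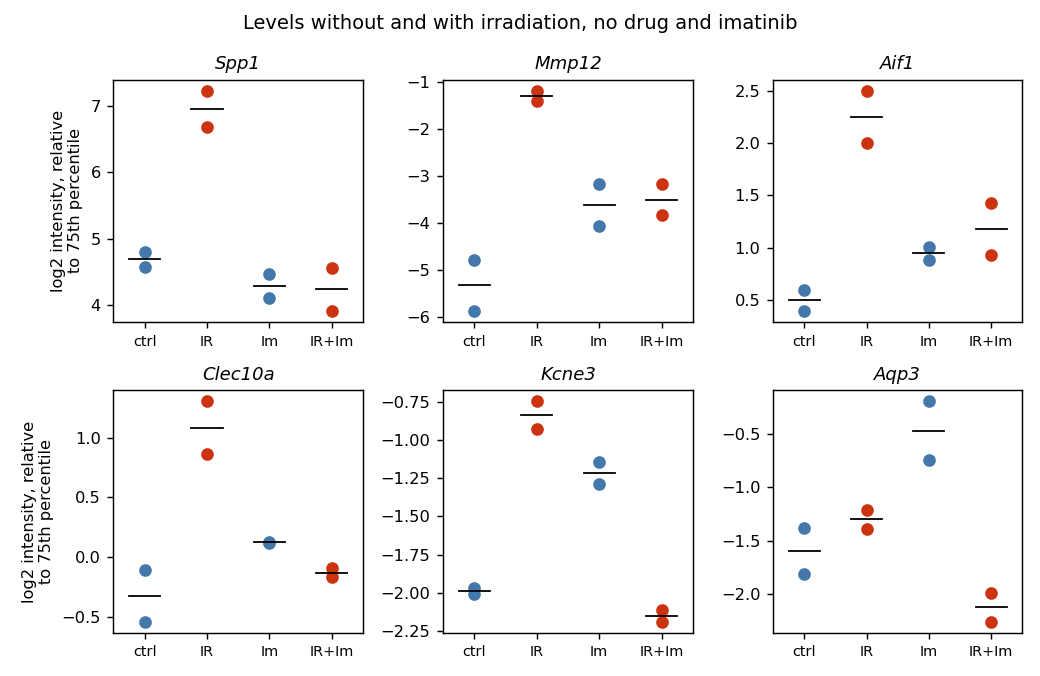
Log2 level relative to the 75th percentile (vertical; scales differ between panels) of 6 genes in ctrl, Irradiation (IR), Imatinib (Im) and Irradiation+Imatinib (IR+Im) lungs; points are arrays and bars are group means. Spp1 lies at 7.22 and 6.68 in the Irradiation lungs and between 3.91 and 4.80 in the other 6, and Aqp3 is highest in the Imatinib lungs (-0.20 and -0.75).

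Of the 560 calls, 123 were also called in the no-drug arm in the same direction (22.0% of these calls and 4.28% of the 2875 there, where 14.1% of genes were called). With Su the count was 314 (56.1%, and 15.2% of 2070, 10.1% of genes), and with Ly+Imatinib it was 232 (41.4%, and 33.0% of 702, 3.44% of genes). By direction, 7.15% of genes were called higher and 6.93% lower in the no-drug arm, 4.75% and 5.39% in the Su arm, and 2.38% and 1.06% in the Ly+Imatinib arm. The imatinib and Su arms lie on the same pair of slides. The imatinib-arm difference minus the Su-arm difference, in which a shift common to all arrays of a slide cancels, was called for 29 genes (0.142%), and Aqp3 was among them at -2.92 ± 0.34 (adjusted p = 0.00327). Aqp3 rose in the Su arm, from -2.22 and -2.13 to -1.30 and -0.51 (1.27, adjusted p = 0.00769). Pax5, the B cell identity factor and named after its values were seen, lay at -2.28 and -2.31 under Imatinib and -1.59 and -2.43 with irradiation, against -4.22 and -4.19 under Su and -1.17 and -0.91 with irradiation. The difference was -2.88 ± 0.45 (adjusted p = 0.0181), and it was lost in 6 of the fits with 1 array left out, with an adjusted p of up to 0.0981. For Gdf15 the difference between these arms was 1.12 ± 0.42 (adjusted p = 0.544) and for Phlda3 0.93 ± 0.21 (adjusted p = 0.176). Against the Ly+Imatinib arm the irradiation difference was called for 15 genes (0.0735%), with Gdf15 at -0.62 and Col2a1 at -0.53 among those that did not pass. The count against Su was 243 without Irradiation+Imatinib 1, 57 without Irradiation 1, and 17 without Irradiation+Imatinib 2, Imatinib 1 or Irradiation+Su 2. That against Ly+Imatinib was 314 without Irradiation+Ly+Imatinib 2, 131 without Irradiation+Imatinib 1, 24 without Ly+Imatinib 2 and 7 without Ly+Imatinib 1.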

How the data were processed

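RNA of mouse lung was labelled with Cy3 and measured on single-colour Agilent arrays. The authors' intensity values came from Feature Extraction software of Agilent (version 9.1.3.1, per the file headers), which had subtracted background and not scaled one array to another. A table deposited for the whole series repeated these values with 1 factor per array (ratios of 0.995 to 1.005 after its removal). Of 43379 spots per array beside 1639 controls, those of the same probe were averaged and 619 of 41174 probes were dropped as outliers. Probes were named through RefSeq accession (22951), symbol (6659) or synonym (3109), and 8455 kept the file's name. The probe with the highest mean stood for each gene.

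The log2 intensity computed from the deposited values, minus the log2 75th percentile of each array, was analysed. Genes well above background on both arrays of at least 1 group were tested: 20409 of 27401. Bounds of folds used the dimmest probe marked above background on each array of the lower group. limma 3.58.1 (R 4.3.3) fitted 1 mean per group over all 24 arrays, with 12 residual degrees of freedom and 2.1 from the shared variance. Tests were two-sided with Benjamini-Hochberg adjustment over all genes tested and a threshold of 0.05, and the scripts were tested on simulated data. The p-values measure the spread between these samples. Replicate numbers were not taken to pair arrays (r across genes 0.0677 between the deviations of the 2 groups).

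Characterised genes without overlap were named by rule: the 15 highest and 15 lowest calls above background on all 4 arrays, up to 6 at background on each side, the 6 smallest p of each comparison between arms, up to 6 members per gene list and 20 fixed genes. The text gives a part of them, and a few genes are not reported here. The members and the 50 lists were chosen with earlier results of these data known.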

Additional observations from a re-analysis of the deposited data

Results flagged for a closer look

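Genes are given here because the test of the difference itself found that their irradiation difference under imatinib was not that of another arm. Each value is the imatinib-arm log2 difference minus that of the other arm, ± its standard error, with limma's adjusted p; no explanation was weighed.

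Against the no-drug arm, 4 genes known from macrophages, of which Clec10a and Aif1 were named after their values were seen, had lower values: Mmp12 -3.93 ± 0.60 (adjusted p = 0.0121), Spp1 -2.31 ± 0.38 (adjusted p = 0.0159), Clec10a -1.67 ± 0.28 (adjusted p = 0.0167) and Aif1 -1.53 ± 0.28 (adjusted p = 0.0258). Lower values were also those of Kcne3 at -2.09 ± 0.22 (adjusted p = 0.000756), Aqp3 at -1.95 ± 0.34 (adjusted p = 0.0231) and Cldn22, at background on both irradiated arrays, at -2.37 ± 0.50 (adjusted p = 0.0498). Lrrn4, a marker of mesothelium, was higher, at 1.58 ± 0.32 (adjusted p = 0.0391); it differed by 0.88 under imatinib and -0.69 without drug. That call was lost in 5 of the fits with 1 array left out: without Irradiation+Imatinib 2, Imatinib 1, Imatinib 2, ctrl 1 or ctrl 2 (adjusted p of up to 0.136), under median scaling (adjusted p = 0.0597), under quantile normalization (0.0717) and with no filter on background (0.0624). With normexp background correction no gene passed in any of these 3 comparisons between arms. With the compared groups fitted alone, Mmp12, Spp1, Clec10a, Aif1, Kcne3, Aqp3 and Lrrn4 did not pass (adjusted p of 0.0902 to 0.347). Aif1 was also lost with quantile normalization (adjusted p = 0.0576). The homeobox gene Tlx2 stood at 3.13 ± 0.36 (adjusted p = 0.000989), with 1.20 under imatinib and -1.94 without drug. The other 5 were at background on both Imatinib arrays, so that their size is fitted and not measured: Cep20 3.03, Itga10 2.66, Pou5f1 2.56, Spertl 4.04 and Tnfsf12 2.84. Cep20 and Tnfsf12 were among the genes that lay higher on each of the 8 arrays of slides 5 and 6 than on the other 16.

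Against the Su arm, Aqp3 stood at -2.92 ± 0.34 (adjusted p = 0.00327) and Pax5 at -2.88 ± 0.45 (adjusted p = 0.0181). Neither passed with the compared groups fitted alone (adjusted p = 0.140 and 0.109). Rbp7, a retinol-binding protein of fat and endothelium, stood at 2.54 ± 0.31 (adjusted p = 0.00327), with 0.21 under imatinib and -2.33 under Su. The genes at background on both arrays of a group in the imatinib arm were C1s2 (7.42), Cldn22 (-4.16), H1f6 (4.46), Itga10 (4.08), Pou5f1 (2.54) and Spertl (3.68).

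Against the Ly+Imatinib arm, the values were 2.62 ± 0.36 for Tlx2 (adjusted p = 0.0123) and 2.18 ± 0.35 for Tat, an enzyme of tyrosine breakdown (adjusted p = 0.0332). Genes at background on both arrays of a group in the imatinib arm were Cldn22 (-3.49), Ddx3y (5.07), Itga10 (1.82), Pou5f1 (2.29) and Spertl (4.71). The Cldn22 call was lost without Irradiation+Imatinib 2 (adjusted p = 0.0576) or Ly+Imatinib 1 (adjusted p = 0.0910). Ddx3y is Y-linked, and its difference was 1.44 under imatinib and -3.63 under Ly+Imatinib; it was above background on 1 of the 4 arrays of the imatinib arm, where the X-linked RNA Xist lay between 3.51 and 3.79. That Ddx3y call was lost without Imatinib 2 or Ly+Imatinib 1 (adjusted p of up to 0.149) and under quantile normalization.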

How the results depend on the processing

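Signal over background limits the dim genes, and 2 arrays per group limit all of them. In the imatinib arm (560 calls), 6 genes were called with normexp background correction (1040 had an unadjusted p under 0.05), 245 with quantile normalization, 330 among genes above background on all 24 arrays and 0 by limma with the 4 arrays alone (2977 unadjusted). Leaving out 1 array gave 129 to 1268 calls, and leaving out Irradiation 1 from the shared spread gave 945. The replicate block gave 572, and moved no count by over 1.5 times. The share of calls that were higher was 85.5% with the 75th percentile, 57.2% with median scaling, 92.8% without the background filter and 78.9% with trend and robust settings. Imatinib minus no-drug arm (132): 0 with normexp (3959 unadjusted), 49 with quantile normalization (53.1% higher), 81 without filter, 58 on the all-24 filter, 10 with these groups alone, 70 with trend and robust settings, 100 with median scaling (55.0% higher) and 39 to 6505 with 1 array left out, the highest without Irradiation 2. Imatinib minus Su arm (29): 0 with normexp (576 unadjusted), 14 on the all-24 filter, 5 alone and 17 to 243 with 1 array left out, 57 without Irradiation 1. Imatinib minus Ly+Imatinib arm (15): 0 with normexp (7336 unadjusted), 0 on the all-24 filter (358 unadjusted), 0 alone (993 unadjusted) and 7 to 314 with 1 array left out. For Cldn22 that last difference was 0.90 (adjusted p = 0.499) with normexp, with the sign turned. The cause of these changes was not tested. Slide as a random block could not be fitted, since each group lay on 1 slide. Of 58 named calls, 58 kept their sign and 1 its call with normexp.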

Other observations

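Other gene groups gave few calls in the imatinib arm. Of 22 senescence genes tested, 2 were called higher (Gdf15 and Igfbp7), beside 2.35% of all genes. Of the 22, 12 were higher and 4 lower without overlap, beside 30.3% and 25% of all genes, with a median of 0.49. Neither called gene kept its call without Irradiation+Imatinib 2 or without Imatinib 2, and the list's medians were then 0.24 and 0.49. Of 24 cholesterol synthesis genes, 1 was called, beside 0.397% of all genes called lower. Ebp, the called gene and a sterol isomerase, had levels of 4.80 and 4.92 in the Imatinib lungs and of 4.37 and 4.45 with irradiation. Its groups did not overlap, and it fell by 0.45 (SE 0.11, adjusted p = 0.0408). That call was lost with any 1 of the 4 arrays left out (adjusted p of up to 0.249). Among 23 immediate early and feedback genes of ERK signalling, 1 was called, beside 2.35% of all genes called higher. Spry4, the called gene and an inhibitor of that pathway, rose by 2.21 ± 0.52 (adjusted p = 0.0348). It had 1 Imatinib array at background and levels of -5.06 and -5.59 against -3.34 and -2.88. That call was lost without Irradiation+Imatinib 2, Imatinib 1 or Imatinib 2 (adjusted p of up to 0.340) and under quantile normalization, median scaling and normexp. Spry4 was also among the genes highest on the 8 arrays of slides 5 and 6. Of 23 NRF2 targets, none was called by limma and 5 had an unadjusted p under 0.05, beside 18.5% of all genes. Without overlap 8 were lower and 4 higher, beside 25% and 30.3% of all genes. Cyp1a1, a cytochrome induced by aryl hydrocarbons, lay at 0.87 and -0.05 under Imatinib and at 2.54 and -0.41 with irradiation, so that the groups overlapped (adjusted p = 0.657).

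Erbb4, a receptor of the neuregulins that was singled out after its values were seen, and Gdf15 were the 2 characterised genes among the 6 that passed with normexp background correction, at 0.95 and 1.73 (adjusted p = 0.0434 for both). Erbb4 too lay higher on each of the 8 arrays of slides 5 and 6 than on the other 16.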
